A study of Homo sapiens with 12 samples.

Results

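The inter-alpha-trypsin inhibitor genes are ITIH1, ITIH2, ITIH3, ITIH4 and AMBP. They were described here through the H3K27ac and H3K4me1 summits at and around them, as 5 genes among 19970 RefSeq protein-coding genes. ITIH1, ITIH3 and ITIH4 are neighbours on chromosome 3 with overlapping surroundings and were taken as 1 locus, which leaves 3 loci. The set was chosen from earlier results of these same summit lists, in which ITIH2 stood out by its H3K27ac summit at a gene end at 15 µM choline. The gene-end and window values below therefore describe the members and test nothing.

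The cells were Huh7, a human hepatocellular carcinoma line. The cells of every group used here were wild type and were kept for 48 h in a custom choline-free medium with B-27 in place of serum, to which 0 or 15 µM choline chloride was given. The chromatin immunoprecipitation libraries were H3K27ac at 0 µM, H3K27ac at 15 µM, H3K4me1 at 0 µM and H3K4me1 at 15 µM, with 1 library each and no transfection named for them. The other 8 of the 12 samples (inputs, RNA-seq and a KLF5 CUT&Tag sample) were not analysed here. Each difference below is thus between 2 libraries of 1 cell line, with no replicate and no test.

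The inter-alpha-trypsin inhibitors are plasma proteins made mainly by hepatocytes. AMBP encodes a precursor that is cut into alpha-1-microglobulin, a carrier of heme and small ligands, and bikunin, a Kunitz-type protease inhibitor. ITIH1, ITIH2 and ITIH3 encode heavy chains that are joined to bikunin through its chondroitin sulfate chain. The enzyme-like protein TSG-6, the product of TNFAIP6, moves these heavy chains onto hyaluronan and so stabilises hyaluronan-rich matrix. ITIH4 encodes a related chain that does not carry bikunin and is known as an acute-phase protein. H3K27ac is a histone mark of active promoters and enhancers, and H3K4me1 is a mark of enhancers whether active or poised.

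A summit is the point of highest enrichment of a called peak, and its score is the authors' own value, read as a −log10 significance. Scores were set on separate scales in each list and were compared only within a list. The exception was the alternatives with a score limit, where the same limit was set at both doses of a mark. Counts under such a limit can be compared between doses only if the scales are alike, which is not known. A gene end, meaning either annotated end of the gene, had a summit when 1 lay within 1 kb. A gene's window took all summits within 50 kb of its ends. For H3K27ac the lists were 37946 summits long without choline and 29305 with it, and for H3K4me1 343156 and 349202. Window counts at 0 µM were scaled by the ratio of list lengths, which was 0.772 for H3K27ac and 1.02 for H3K4me1. A window count was called higher or lower at 15 µM when both doses together held at least 10 summits and the scaled ratio was at least 1.5 either way.

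Huh7 carried H3K27ac at other liver genes. All 24 genes of a list of liver plasma proteins had at least 1 H3K27ac summit in their windows in one of the lists. Their median was 9.5 summits at 0 µM and 8 at 15 µM, against 2 and 1 over all genes. The 12 markers of blood, endothelial, fibroblast, neuron and muscle cells had medians of 1 and 0.

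RefSeq (GRCh38.p14, the assembly family of hg38) lists starts for ITIH1, ITIH3, ITIH4 and AMBP with their flanking sequence, and ITIH2 has no entry. The entries of ITIH1 belong to 3 inner starts and not to the outermost end of the gene. For ITIH3, ITIH4 and AMBP the listed start is a gene end with an H3K4me1 summit within 1 kb in at least 1 list. The 250 bases before it are shown as the promoter sequence of these members, and none of the summits described here falls inside them. Capitals mark matches, on either strand, to short letter patterns of liver and KLF-type factors.
ITIH3 (chr3:52794546-52794795, plus strand): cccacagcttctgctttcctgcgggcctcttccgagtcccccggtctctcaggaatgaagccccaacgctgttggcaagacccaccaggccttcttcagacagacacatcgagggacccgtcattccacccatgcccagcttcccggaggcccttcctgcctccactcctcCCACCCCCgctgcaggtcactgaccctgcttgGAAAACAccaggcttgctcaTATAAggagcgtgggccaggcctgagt
ITIH4 (chr3:52830673-52830922, minus strand): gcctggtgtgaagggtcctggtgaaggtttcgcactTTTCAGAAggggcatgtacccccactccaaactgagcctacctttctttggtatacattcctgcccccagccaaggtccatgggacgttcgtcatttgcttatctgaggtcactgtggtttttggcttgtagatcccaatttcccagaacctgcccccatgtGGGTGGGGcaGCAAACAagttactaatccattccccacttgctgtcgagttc
AMBP (chr9:114078301-114078550, minus strand): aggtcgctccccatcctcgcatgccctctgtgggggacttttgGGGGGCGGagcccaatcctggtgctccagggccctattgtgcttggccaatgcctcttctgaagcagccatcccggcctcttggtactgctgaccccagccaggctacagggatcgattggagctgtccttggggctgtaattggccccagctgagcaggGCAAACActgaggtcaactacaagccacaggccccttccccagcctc

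The patterns searched were TATAA (TATA box), CCNCNCCC (the box of KLF and SP factors), TGTTTNC (forkhead), TTNNGNAA (C/EBP), CAAAGTNCA (HNF4) and GTTAATNA (HNF1), and they were chosen after these sequences had been seen. TGTTTNC or its reverse complement lay shortly before all 3 printed starts, at bases -47 to -41 for ITIH3, -42 to -36 for ITIH4 and -47 to -41 for AMBP, counted back from the start. It occurs in 15.5% of all 35116 listed promoters of the same length. CCNCNCCC was also present in all 3, at -79 to -72, -52 to -45 and -207 to -200, against 53.4% of all promoters. TATAA was found in ITIH3 at -27 to -23 (18.9% of all promoters) and TTNNGNAA in ITIH4 at -214 to -207 (33.2%). None of the 3 windows held CAAAGTNCA (0.94% of all) or GTTAATNA (2.19%). The G and C content was 62%, 52% and 62%, with 9, 4 and 5 CG pairs, against medians of 58.0% and 11 pairs over all promoters. The inner starts of ITIH1 had neither TGTTTNC nor CCNCNCCC before them, and 2 of the 3, which overlap, shared 1 match to TTNNGNAA, at -39 to -32 from one start and -44 to -37 from the other. A match is a description of the letters and not a measured binding site.

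The members fell into 2 kinds for H3K27ac. ITIH2 and AMBP had summits in both lists, and the locus of ITIH1, ITIH3 and ITIH4 had none in either. ITIH2, which encodes the second heavy chain, had a window of 5 summits without choline and 7 with 15 µM. AMBP had 11 at 0 µM and 10 at 15 µM. ITIH1, ITIH3 and ITIH4 each had 0 and 0. A window without any H3K27ac summit in either list was found for 32.8% of all protein-coding genes. In the order of H3K27ac windows AMBP thus came first, ITIH2 next and the 3 genes of chromosome 3 last, at both doses.

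**Figure D1:**
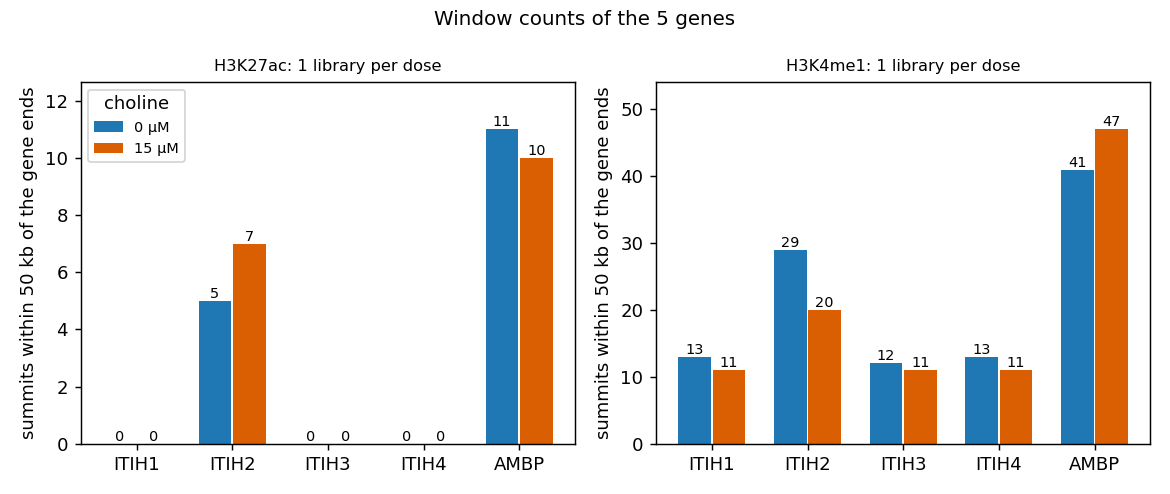
Summits within 50 kb of the ends of each gene (vertical axis), for H3K27ac on the left and H3K4me1 on the right, with 1 bar per dose and 1 library per bar. ITIH1, ITIH3 and ITIH4 have no H3K27ac summit at either dose and share most of their H3K4me1 summits, since their windows overlap.

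At gene ends, no member had an H3K27ac summit at 0 µM, where 28.3% of all genes had one. At 15 µM only ITIH2 did, where 16.2% of all genes had one. The ITIH2 end was gained in the sense that the 0 µM list had no summit within 2 kb of either end, as for 1.70% of all genes. This is the value by which ITIH2 was picked, so nothing is read from it. A loss, called for 12.4% of all genes, was not possible for any member, since none had an H3K27ac end at 0 µM. The ITIH2 summit at 15 µM lay 300 bp from the end. In lists where a member had no summit within 1 kb, the closest were those of AMBP at 15 µM (2345 bp) and 0 µM (2504 bp) and of ITIH2 at 0 µM (2576 bp).

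ITIH2 (chromosome 10, 7703316 to 7749520, hg38) had its H3K27ac summits gathered around its lower-coordinate end. At 0 µM the highest-scoring one was at 7706451, which is 3135 bp inside the gene, with a score of 80.1, above 99.5% of that list. The remaining ones at 0 µM were at 7699590, outside the gene (score 10.9), at 7710603 (8.55) and 7712266 (6.39) inside it, and at 7746944 (9.64), 2576 bp before its upper end. At 15 µM the highest-scoring one was at 7703616, 300 bp inside the gene, with a score of 39.8, above 98.7% of its list. The summit at 7706387, 64 bp from the highest one of the 0 µM list, was second with a score of 28 (above 96.0%). Thus the site about 3 kb inside the gene was listed at both doses, and the site at the gene end only at 15 µM.

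The other ITIH2 summits at 15 µM were weaker. Outside the gene they lay at 7699386 (score 13.3) and 7700942 (8.70), and inside it at 7705497 (10.3) and 7710562 (9.27). The summits at 7699386 and 7710562 lay 204 and 41 bp from summits of the 0 µM list. The seventh, at 7788490 (7.13), lay in ATP5F1C, which encodes a subunit of ATP synthase, and no 0 µM summit lay within 41546 bp of it. Between the 2 lists, 3 of 5 summits at 0 µM and 3 of 7 at 15 µM (42.9%) had a partner within 500 bp, beside 38.7% and 50.7% over the whole lists. Exact Clopper-Pearson 95% intervals were 14.7 to 94.7% and 9.90 to 81.6%, so these small counts give little precision.

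**Figure D2:**
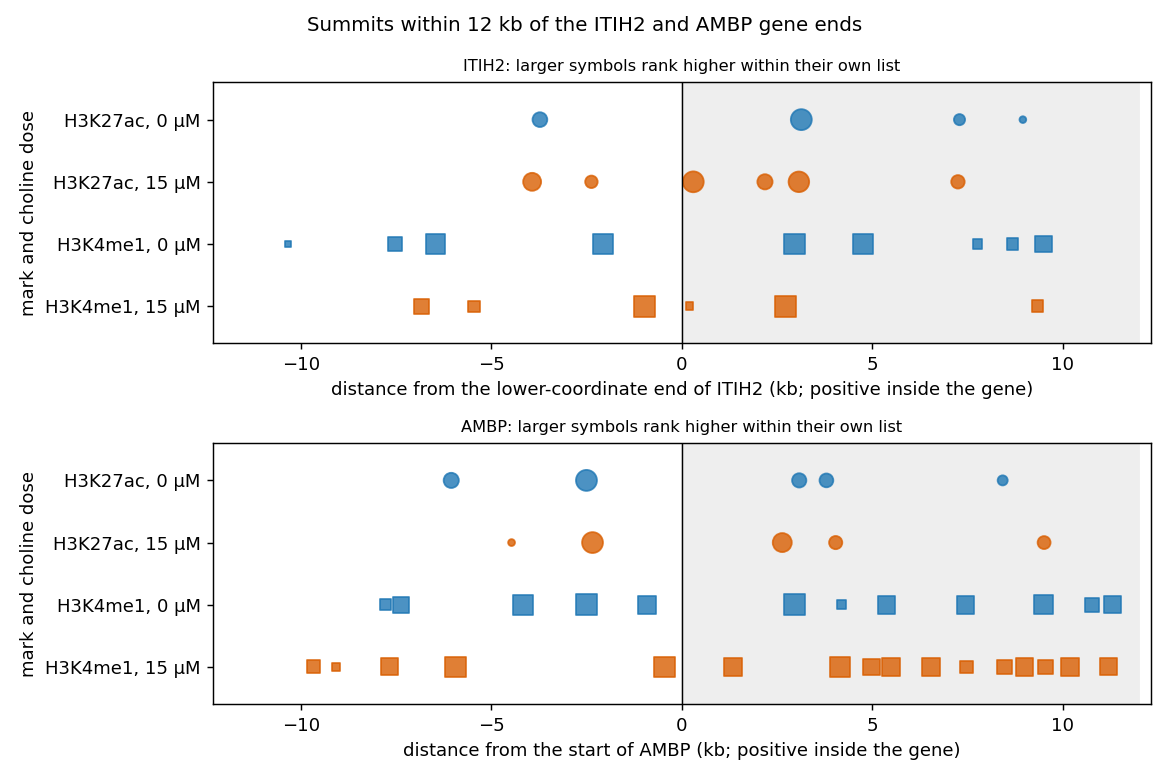
Summits of the 4 lists within 12 kb of the lower-coordinate end of ITIH2 (top) and of the start of AMBP (bottom). The horizontal axis is the distance in kb, with the inside of the gene shaded, circles are H3K27ac and squares H3K4me1, and a larger symbol scores above more of its own list. At ITIH2 the 15 µM H3K27ac list has a summit 300 bp inside the end and both lists have one near 3 kb. At AMBP both have their highest one outside the gene, 2504 and 2345 bp before the start.

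Scaled for list length, the ITIH2 H3K27ac window held 1.81 times as many summits at 15 µM as at 0 µM (exact 95% interval 0.495 to 7.24, counting error only). This was called higher, as were 19.2% of the 3665 genes with enough summits, whereas 17.8% were called lower. Counted as 5 kb bins with a summit, the window had 4 bins at each dose, a ratio of 1 unscaled and 1.29 scaled by list length, on too few bins for a call. ITIH2 stood at the edge of an empty stretch. Below its lowest H3K27ac summit, no other one followed over 1297710 bp at 0 µM and 1333677 bp at 15 µM. The stretch held 3.39 H3K4me1 summits per 100 kb at 0 µM and 4.50 at 15 µM, against 11.6 and 11.8 over the whole lists. Stretches at least as long held 11.1% of genes at 0 µM and 17.2% at 15 µM.

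H3K4me1 at ITIH2 went the other way in number. Its window had 29 summits at 0 µM and 20 at 15 µM, a scaled ratio of 0.678 (0.363 to 1.24), short of the limit for a call. It passed that limit within 20 kb (19 and 12 summits, ratio 0.621) and with a score of at least 5 (13 and 6, ratio 0.481). Among the 17695 genes with enough H3K4me1 summits within 50 kb, at any score, 8.52% were called higher and 5.97% lower. Such shares were not computed for the other 2 settings. Inside the gene there were 10 at 0 µM and 5 at 15 µM. The highest-scoring one was about 3 kb inside the gene in both lists, at 7706267 (26.8) at 0 µM and 7706032 (25.6) at 15 µM. These lay 184 and 355 bp from the H3K27ac summit of the same dose. The 0 µM list also had summits at 7708068 (13.6), 7716015 (12) and 7716940 (13.2). The 15 µM list had 7715427 (2.20) and 7716083 (3.73) in the latter region and none within 2036 bp of the first.

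Around the ITIH2 gene end, H3K4me1 summits lay closer at 15 µM. At 0 µM the nearest to the lower-coordinate end was 2066 bp outside it, at 7701250 (12.8). At 15 µM one lay 990 bp outside, at 7702326 (22.8), and a weak one 201 bp inside, at 7703517 (1.69). The second lay 99 bp from the H3K27ac summit at the gene end. ITIH2 counted as having an H3K4me1 end in both lists, at 0 µM only through a summit of score 2.11, 517 bp from its upper end. Thus at the lower-coordinate end itself both marks were listed within 1 kb at 15 µM and neither at 0 µM.

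AMBP (chromosome 9, 114060127 to 114078300, minus strand) had its highest-scoring H3K27ac summit outside the gene, before its start. At 0 µM it was at 114080804 with a score of 96.0, above 99.8% of the list. At 15 µM it was at 114080645, 159 bp away, with a score of 41.7, above 99.0% of its list. Both positions fall in LOC107987120, a long noncoding RNA gene. The site was thus the leading one of this locus at both doses.

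Inside AMBP the 0 µM list had summits at 114069880 (7.71), 114074506 (9.78) and 114075220 (10.3), and the 15 µM list at 114065142 (9.46), 114068793 (9.14), 114074263 (9.15) and 114075665 (15.9). Further out, beyond the highest summit, the 0 µM list had 114084353 (10.9) and the 15 µM list 114082770 (6.31) and 114108059 (5.43). A second group lay about 40 kb before the start. It had 4 summits at 0 µM, from 114117541 to 114120732 with scores of 7.51 to 19.4, and 3 at 15 µM, from 114117923 to 114119988 with scores of 7.66 to 12. Of the AMBP summits, 6 of 11 at 0 µM (54.5%, 23.4 to 83.3) and 6 of 10 at 15 µM (interval 26.2 to 87.8%) had a partner within 500 bp in the other list. The scaled ratio of the window was 1.18 (0.448 to 3.05) and was not called. Within 20 kb the ratio was 1.55, which met the limit for a higher call. It rested on 5 and 6 summits, just past the minimum of 10. The share of all genes called within 20 kb was not computed. In the windows first used, 19.2% of genes with enough H3K27ac summits were called higher and 17.8% lower. Within 100 kb the ratio of AMBP was 0.925.

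A difference in the AMBP window lay at KIF12, a kinesin gene next to it. At 0 µM summits at 114099183 (8.13) and 114099577 (31.7) sat at its end, and at 15 µM none lay within 8482 bp of them. KIF12 thus counted as having lost its H3K27ac end. The nearest H3K4me1 summit of the same stretch was at 114100189 (9.70) at 0 µM and at 114100584 (25.6) at 15 µM, so H3K4me1 was listed there at both doses. ZNF618, a zinc finger gene on the other side of AMBP, also lost an H3K27ac end, at its far end outside the AMBP window. At its end facing AMBP it gained an H3K4me1 summit, at 114057339 (1.92).

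AMBP had more H3K4me1 summits than any other member, with 41 at 0 µM and 47 at 15 µM, and a scaled ratio of 1.13 (0.725 to 1.76). These counts exceeded those of 89.7% and 94.4% of all genes. The gene itself held 13 and 14. The highest-scoring one was in the group about 40 kb before the start in both lists, at 114120322 (35.0) at 0 µM and 114119564 (31.1) at 15 µM. Before the start, the 0 µM list had summits at 114079208 (5.10), 114080814 (24.5) and 114082467 (13.7). The middle one lay 10 bp from the highest H3K27ac summit. The 15 µM list had them at 114078754 (15.2) and 114084241 (14.0) with none between, on either side of its highest H3K27ac summit, 1891 bp from the nearer. Just before the start of AMBP, 454 bp away at 15 µM and 908 bp at 0 µM, H3K4me1 was thus listed at both doses. The printed AMBP sequence ends at that start.

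**Figure D3:**
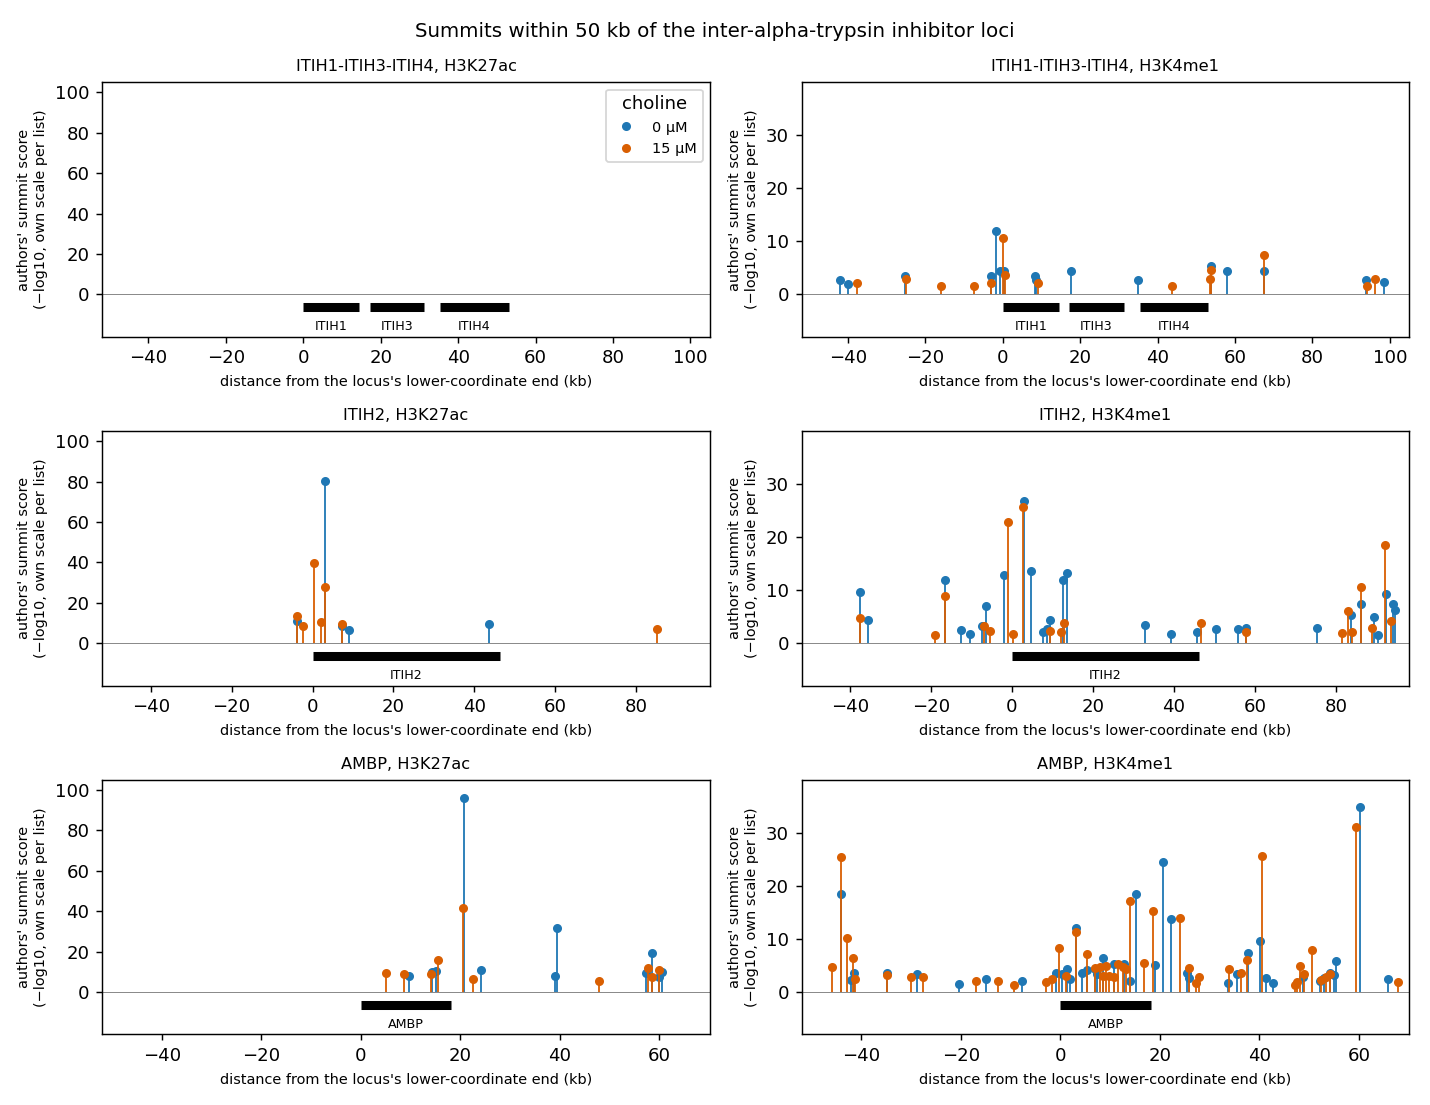
Summits within 50 kb of the 3 loci, with the distance from the lower-coordinate end in kb on the horizontal axis, the authors' score on the vertical axis and black bars for the genes. H3K27ac is on the left and H3K4me1 on the right, and scores are on a separate scale for each list. The top left panel is empty, as the locus of ITIH1, ITIH3 and ITIH4 has no H3K27ac summit, while its H3K4me1 summits score up to 12 at 0 µM and 10.6 at 15 µM.

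The locus of ITIH1, ITIH3 and ITIH4 (chromosome 3, 52777599 to 52830672) had no H3K27ac summit within 50 kb in either list. At 0 µM the nearest summits were 91813 bp below it and 89374 bp above it, near PBRM1, a chromatin remodelling subunit, and SFMBT1. At 15 µM they were 483145 bp below and 517225 bp above. The locus thus lay in a stretch of 234259 bp without an H3K27ac summit at 0 µM and of 1053442 bp at 15 µM. In the longer stretch, which holds 25 protein-coding genes, the 0 µM list had 4 summits with scores of 6.39 to 21.2. Stretches at least as long held 47.7% of all genes at 0 µM and 21.7% at 15 µM, so neither was rare. A list holds only summits above the caller's limit, so an empty window does not show that the mark was absent.

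H3K4me1 was listed at the locus, with 16 summits at 0 µM and 14 at 15 µM and a scaled ratio of 0.860 (0.389 to 1.88). The locus window held 10.5 H3K4me1 summits per 100 kb at 0 µM and 9.15 at 15 µM, beside 11.6 and 11.8 over the whole lists. In the stretch without H3K27ac they numbered 10.2 per 100 kb at 0 µM and 13.7 in the longer stretch at 15 µM. Per gene, ITIH1 had 13 and 11, ITIH3 12 and 11 and ITIH4 13 and 11. Genes without any H3K27ac summit in their windows had a median of 8 H3K4me1 summits at each dose, and the others had 25 and 26. The 3 genes lay between these.

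ITIH1, the first heavy chain, had the highest-scoring H3K4me1 summits of the locus. At 0 µM the highest lay before its outer end, at 52775745 (12), followed by 52777001 (4.39) and 52777835 (4.39). At 15 µM it was 68 bp inside the gene, at 52777667 (10.6), beside 52778258 (3.73). ITIH3, the third heavy chain, had a summit 437 bp inside its start at 0 µM, at 52795233 (4.39), and none within 8058 bp at 15 µM, a lost H3K4me1 end as for 4.61% of all genes. A gain (5.76% of all genes) was not possible for any member, since all had an H3K4me1 end at 0 µM. ITIH4 had a summit 767 bp before its start at 0 µM, at 52831439 (5.34), and 2 at 15 µM, at 52831090 (2.93) and 52831491 (4.58). At 0 µM all 5 members had an H3K4me1 end, and at 15 µM 4 of 5 did, against 51.6% and 52.9% of all genes. Most of these scores were low, and the order of the doses turned with the limits. With a score of at least 5, 2 members had such an end at 0 µM and 3 at 15 µM, and within 500 bp 3 and 4 members did.

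H3K27ac summits at the members were set against H3K4me1 next. Of the summits in the 3 windows, 10 of 16 at 0 µM (62.5%, 35.4 to 84.8) had an H3K4me1 summit of the same dose within 1 kb, and 9 of 17 at 15 µM (52.9%, 27.8 to 77). Over the whole H3K27ac lists the shares were 65.2% and 58.5%, inside those intervals. In the other direction, 10 of 86 H3K4me1 summits at 0 µM (11.6%, 5.72 to 20.3) and 13 of 81 at 15 µM (16.0%, 8.83 to 25.9) had an H3K27ac summit within 1 kb. The whole lists had 7.67% and 4.82%. By locus, AMBP had 6 of 41 and 11 of 47, ITIH2 had 4 of 29 and 2 of 20, and the chromosome 3 locus had 0 of 16 and 0 of 14.

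Distal H3K27ac summits, those over 2.5 kb from every protein-coding gene end, were joined into clusters where they lay within about 12 kb of each other. Ends of noncoding genes, such as LOC107987120, were not considered. At 0 µM the cluster from 114069880 to 114084353, which spans the start of AMBP, held 5 summits and ranked 517th of 11008 by summed score. At 15 µM the corresponding cluster held 5 summits and ranked 1605th of 8539. It left out the highest summit, at 114080645, which at 2345 bp from the gene end fell inside the 2.5 kb limit, whereas the matching one at 0 µM fell just outside it at 2504 bp. A cluster was dense when it ranked above the point where the curve of ranked scores reaches a slope of 1, and only the AMBP cluster at 0 µM was, among those in the member windows. The ITIH2 cluster held 4 summits at 0 µM (rank 793) and 3 at 15 µM (rank 1576), where the summits at 7700942, 7703616 and 7705497 lay too close to the gene end to enter. With summits near gene ends kept, the clusters ranked 690th of 14332 and 778th of 10585 for AMBP, and 1042nd and 584th for ITIH2. Since the lists are of unequal length, these ranks cannot be compared between the doses.

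Among the 24 liver plasma protein genes, 15 had an H3K27ac end at 0 µM and 15 at 15 µM, against 0 and 1 of the 5 members. Over all genes the shares were 28.3% and 16.2%. Liver genes that are neighbours, such as FGA, FGB and FGG, have overlapping windows and were still counted as separate genes. None of the liver genes lacked H3K27ac in both windows, against 3 members, which count as 1 locus. ORM2, an acid glycoprotein, and AGT, angiotensinogen, lost their H3K27ac ends, a call made for 12.4% of all genes. The H3K4me1 windows of the liver genes had medians of 30 at 0 µM and 28.5 at 15 µM, and the member values ran from 12 to 41 and from 11 to 47. AMBP and ITIH2 lay within the range of the liver genes for both marks at both doses. That range was wide, for H3K27ac from 1 to 24 summits at 0 µM and from 0 to 44 at 15 µM. The 0 of ITIH1, ITIH3 and ITIH4 at 15 µM fell in it too. PECAM1, a marker of other cells, was also within it for both marks.

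**Figure D4:**
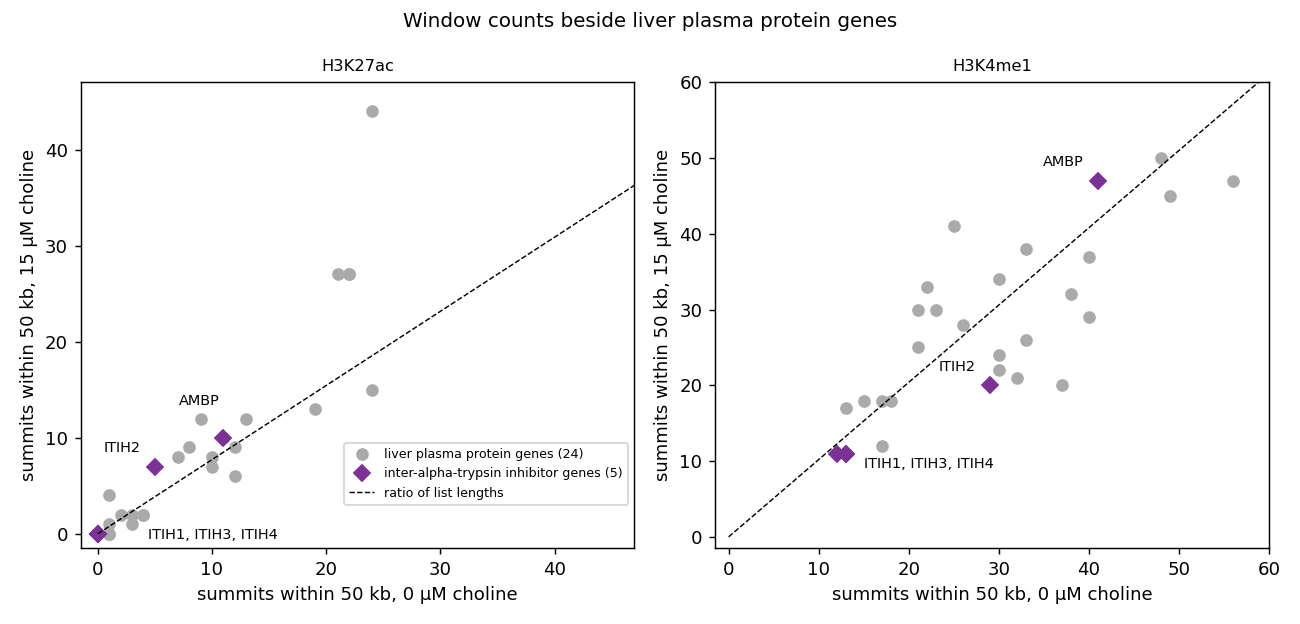
Summits within 50 kb at 0 µM (horizontal axis) and 15 µM choline (vertical axis) for the 5 genes and for the 24 liver plasma protein genes, with 1 point per gene and the ratio of list lengths as a dashed line. AMBP and ITIH2 lie among the liver genes for both marks, and ITIH1, ITIH3 and ITIH4 share the point at 0 and 0 for H3K27ac.

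Of the further family members, ITIH5, a heavy chain gene next to ITIH2, had an H3K27ac window of 4 summits without choline and 6 with it, all of them in the stretch that its window shares with ITIH2, and none at its ends. ITIH6, on the X chromosome, had 0 and 0. Their H3K4me1 windows held 21 and 22 summits for ITIH5, and 13 and 21 for ITIH6. The other protein-coding genes with an end in a member window were NEK4, MUSTN1, STIMATE and STIMATE-MUSTN1 on chromosome 3, with H3K27ac windows of 0 or 1 summit, and KIN and ATP5F1C beside ITIH2. KIN and ATP5F1C both counted as gained ends at 15 µM through the 1 shared summit at 7788490.

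The hyaluronan list, to which the heavy chains belong by function, held 22 synthases, hydrolases, receptors and matrix proteins. Of these, 6 had an H3K27ac end at 0 µM and 4 at 15 µM, beside 28.3% and 16.2% of all genes. None was gained (1.70% of all genes), and 2 were lost (12.4% of all), those of VCAN, a large proteoglycan, and HAPLN2, a link protein. By any difference in scaled count, without the limit of 1.5, H3K27ac windows were higher at 15 µM for 6 genes and lower for 9, with a median difference of 0. Over all 19970 genes 4881 were higher and 8545 lower, also with a median of 0. TNFAIP6 had 1 summit at each dose, HAS2, the main hyaluronan synthase of many tissues, had 0 and 0, and CD44, a hyaluronan receptor, had 9 and 2. The highest counts were those of CEMIP2, a hyaluronan hydrolase at the cell surface, with 29 and 30.

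Of 16 genes for the chondroitin sulfate chain and for precursor cleavage, 5 had an H3K27ac end at 0 µM and 1 at 15 µM, beside the same 28.3% and 16.2% of all genes. The ends of XYLT2, B4GALT7 and B3GAT3, which build the linker between a protein and its chondroitin chain, were lost, 3 of 16 against 12.4% of all genes. By any difference, scaled windows were higher for 1 gene and lower for 9, beside 4881 higher and 8545 lower of all 19970 genes. The median difference was -0.32 summits, against 0 over all genes. FURIN, a proprotein convertase, had 11 summits at each dose and kept its end. Of 13 other genes with Kunitz domains, 1 had an H3K27ac end at each dose (28.3% and 16.2% of all genes), and 6 had no summit in either window (32.8% of all). TFPI, the tissue factor pathway inhibitor, had 14 and 16. These counts come from 1 library per dose and were not tested.

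Genes with the most similar pattern were taken by the smallest Euclidean distance of log2(count + 1) over the 4 window counts, leaving out genes within 200 kb of a member or of one already named. For AMBP they were CYP17A1, a steroid hydroxylase, with 11, 10, 41 and 48 summits (distance 0.03), PKP4 and BAZ2A (0.14 and 0.15). For ITIH2 they were KLRD1, with 5, 8, 27 and 21 (distance 0.21), TST, the rhodanese gene (0.24), and NYAP1 (0.27). For the chromosome 3 locus the counts of the joint window (0, 0, 16 and 14) were set against the windows of single genes. There 12 genes had the same 4 counts, of which ANKRD2, CCBE1 and CHMP7 come first by name. ITIH1, ITIH3 and ITIH4 each have fewer H3K4me1 summits on their own, so these genes match the locus and not its single members. The counts are given for H3K27ac at 0 and 15 µM and then H3K4me1 at 0 and 15 µM.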

How the data were processed

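Huh7 cells were profiled by ChIP-seq for H3K27ac and H3K4me1 at 0 and 15 µM choline, with 1 library for each. The authors deposited 1 list of peak summits per library, in the layout of MACS2 summit files. The score that the authors deposited is taken as a −log10 significance, and no source used here says whether of p or q. The lowest scores were 5.01 for both H3K27ac lists, and 1.31 and 1.30 for H3K4me1. Per the submitters' processing notes, hg38 was the build and the tools included MACS2, Bowtie, deepTools and Picard. Tool versions, calling settings, use of inputs and read depth are not given in the sources used here.

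Only chromosomes 1 to 22 and X entered. Gene ends came from RefSeq (GRCh38.p14), whose gene table gives no exons, so exon, intron and UTR positions are not given. Counts were made with Python 3.11.15, numpy 2.4.6, pandas 2.3.3 and scipy 1.17.1, and checked on lists with planted summits. A gene end was lost or gained when the other dose had no summit within 2 kb of either end. Intervals for shares are Clopper-Pearson at 95%, and those for ratios are exact for 2 counts. Both cover counting error only and treat summits as independent. No test between doses was possible. The members and lists were chosen with earlier results of these data known. Named genes were the members, the family, genes with an end in a member window, the 3 most alike per locus and list genes with a gained or lost end. Other genes named (PBRM1, SFMBT1, TNFAIP6, HAS2, CD44, CEMIP2, FURIN and TFPI), and the lengths of stretches without summits, were chosen after their values were seen. In the marker list of other cells, CD3E had a gained and SNAP25 a lost end. Alternatives covered distances, windows, score limits, list lengths, bins and stitching.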

Additional observations from a re-analysis of the deposited data

How the results depend on the processing

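No paired analysis was possible because each mark and dose had 1 library. Of the recomputed values, 80 stayed within 1.5 times the count or within the interval first given, and 16 did not. Part of this agreement was fixed in advance, since a count of 0 stays 0 under a narrower distance or a score limit. The intervals of the ratios were also wide, so the number that stayed is not a measure of stability. With absence required within 10 kb, 0 members had a gained H3K27ac end. Within 500 bp, a distance added after seeing the data, 3 members had an H3K4me1 end at 0 µM and 4 at 15 µM, and with a score of at least 5, 2 and 3 did, both in the opposite order to the 5 and 4 first given. A window of 100 kb gave the chromosome 3 locus 2 H3K27ac summits at 0 µM. Over the 3 loci, H3K27ac summits with H3K4me1 within 2 kb were 93.8% at 0 µM and 94.1% at 15 µM. H3K4me1 summits shared between doses were 46.5% and 51.9% within 500 bp, beside 44.5% and 43.5% over the whole lists. They were 29.1% and 30.9% within 200 bp, 64.0% and 66.7% within 1 kb, and 77.9% and 86.4% within 2 kb. H3K27ac summits at 0 µM were shared at 81.2% within 2 kb. No whole-list share was computed at distances other than those first used. Stitching at 5 kb gave 7 clusters in the windows at 15 µM in place of 3, and 2 dense ones at 0 µM in place of 1. Keeping summits near gene ends gave 1 dense cluster at 15 µM in place of 0, at ITIH2. Such distances and joins change these values by construction. The scaled H3K27ac ratio of ITIH2 ran from 1.29 (5 kb bins, scaling added after seeing the data) to 2.76 (score of at least 10, on 2 and 4 summits), and both of these rest on too few for a call. That of AMBP ran from 0.925 (100 kb window) to 1.55 (20 kb window, past the limit for a call). Unscaled, the bins gave 1 and 0.857. The H3K4me1 ratio of ITIH2 ran from 0.481 (score of at least 5) to 0.983 (100 kb window), and at 20 kb it was 0.621. The first and last of these pass the limit for a lower call. Shares of all genes called were not computed at 20 kb or with a score limit. Read depth is unknown, and an unlisted summit can be a weak one.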
